A study of Mus musculus with 6 samples.

Results

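The replication-dependent histone genes and the genes of the linker histones were followed in long-term haematopoietic stem cells (LT-HSCs), the self-renewing cells of the marrow from which all blood lineages descend. Members were the rows of a gene expression table whose symbols are those of the H2A, H2B, H3 and H4 genes of the histone gene clusters, or of an H1 linker histone. The rule found 51 of 14986 genes, namely 12 of H2A, 13 of H2B, 10 of H3, 9 of H4 and 7 of H1. The data were 6 libraries of polyadenylated RNA from mouse bone marrow, 3 labelled Zcchc8 KO and 3 labelled wild type, each from 1500 sorted cells. Femur, tibia and hip were crushed and lineage-positive cells removed before the sort, and the RNA was amplified as cDNA. ZCCHC8 holds together the complex that targets short-lived nuclear RNA to the exosome, and the study asked what its depletion does to the RNA of these cells. The kind of Zcchc8 allele, the strain, age and sex of the mice, the surface markers of the sort and the number of animals behind the replicates could not be taken from the labels. The p-values therefore cover the spread between these libraries, part or all of which may be technical.

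Histones H2A, H2B, H3 and H4 form the octamer around which DNA is wound, and H1 binds the DNA that enters and leaves it. Most of their genes are read in S phase, when new DNA has to be packed, and they have no introns. Their mRNAs are unlike all others of the cell in that they end in a short stem-loop and not in a poly(A) tail. The stem-loop is bound by SLBP, the cut after it needs the U7 snRNP with LSM10 and LSM11, and NPAT activates transcription of the clusters. In human cells the nuclear exosome targeting complex is known to take part in degrading histone transcripts that were not cut at the stem-loop and run on past it. A library made from polyadenylated RNA is therefore an indirect view of these genes, and reads of a member can come from transcripts that ended at a poly(A) site. The linker histone genes H1f0 and H1f10 fall under the rule by name but are known as replication-independent genes with polyadenylated mRNA, and H2bc1 is a histone H2B of the testis.

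Values are FPKM, read counts scaled for exon length and library depth, as the authors deposited them. The reads behind them came to 25709665, 18963364 and 20823505 in the KO libraries and to 18059322, 18294788 and 18909217 in the wild-type libraries, as read back from the steps of the values. Zcchc8 itself stood at 10.4, 5.54 and 5.92 FPKM in the KO libraries and at 8.93, 5.24 and 5.16 FPKM in the wild-type libraries, a log2 difference of 0.15 ± 0.33 (SE). A value summed over all exons does not check the label, so KO here means the libraries that carry that label. Markers of other blood cells differed between the groups. Summed over the list, B cell markers (6 of 7 in the table) ran from 63.3 to 90.4 FPKM in KO and from 804 to 918 FPKM in wild type, eosinophil markers (4 of 4) from 161 to 205 FPKM in KO and from 0.116 to 1.02 FPKM in wild type, and erythroid markers (7 of 7) from 422 to 449 FPKM in KO and from 102 to 131 FPKM in wild type. The 13 LT-HSC markers were all present and summed to between 394 and 439 FPKM in KO and between 525 and 583 FPKM in wild type. Granulocyte markers (6 of 6) summed to 3346 to 3796 FPKM in KO and 2589 to 2724 FPKM in wild type, and monocyte and dendritic cell markers (5 of 6) to 834 to 880 FPKM in KO and 689 to 734 FPKM in wild type. Megakaryocyte markers (4 of 4) came to 297 to 329 FPKM in KO and 164 to 231 FPKM in wild type, and T and NK cell markers (3 of 4) to 308 to 322 FPKM in KO and 186 to 231 FPKM in wild type. Endothelial and stromal markers (2 of 4) were low, at 10.31 to 11.7 FPKM in KO and 7.57 to 10.29 FPKM in wild type. No marker in the table was at 0 in all libraries of a group. At 0 in at least 1 library were all 4 eosinophil markers, 2 B cell, 2 megakaryocyte, 1 LT-HSC, 1 erythroid and 1 T and NK cell marker. The groups did not overlap in any of these sums, and their part in the histone results was not tested. In such bulk samples fewer cells of a type and less RNA per cell cannot be told apart.

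In the annotation of mm10 (GENCODE M21) 44 members lie on chromosome 13, 5 on chromosome 3, H1f0 on chromosome 15 and H1f10 on chromosome 6. A single exon makes up 49 of them, 50 are annotated as protein coding, and H2ac14 is annotated as a pseudogene. The histone stem-loop was searched for in the longest annotated transcript of each member as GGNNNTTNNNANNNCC, with the outer 6 bases on each side required to pair. It was found in 33 of the 51 members. Of the 18 without it, 8 have a model of the coding sequence alone, where a loop past the coding sequence could not be found. The models of H2ac12 and H2ac10 hold only 18 and 6 bases outside it, and that of the pseudogene H2ac14 is 352 bases long. A missing loop says little in these models too. For other protein-coding genes a match in any annotated transcript counted, a wider search than for the members. There 127 of 21901 (0.580%) held the motif, 14 of them with a histone name in the annotation. The 33 members share 8 forms of it. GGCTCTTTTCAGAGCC is the form of 18 members of H1, H2A, H2B and H3, and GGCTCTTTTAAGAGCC that of 5 members of H2B and H3. Of the H4 members with a loop, 4 have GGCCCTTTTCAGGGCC and 2, H4c9 and H4c14, have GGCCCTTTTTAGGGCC. The loops of the members on which the results turn are given 5′ to 3′ on the gene's strand, with 5 bases on each side, the stem-loop in capitals and mm10 positions.
H4c9, chr13:22040961-22040986, minus strand: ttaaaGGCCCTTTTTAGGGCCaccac
H4c4, chr13:23581945-23581970, plus strand: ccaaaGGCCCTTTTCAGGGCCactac
H3c1, chr13:23761885-23761910, minus strand: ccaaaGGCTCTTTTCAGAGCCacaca
H2ac8, chr13:23570663-23570688, minus strand: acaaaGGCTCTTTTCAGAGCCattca
H2ac4, chr13:23751567-23751592, plus strand: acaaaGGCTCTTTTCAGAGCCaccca
H2bc12, chr13:22036295-22036320, plus strand: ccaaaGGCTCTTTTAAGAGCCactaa
H1f2, chr13:23739507-23739532, plus strand: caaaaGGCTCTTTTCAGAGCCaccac
H3c8, chr13:23535884-23535909, plus strand: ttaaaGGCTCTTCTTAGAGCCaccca
The annotated transcript of H4c9 runs 330 bases past its loop, that of H4c4 770, that of H1f2 840 and that of H2ac8 151, whereas those of H3c1, H2ac4, H2bc12 and H3c8 end 37, 11, 30 and 47 bases after it.

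No histone member passed the test between KO and wild type. By limma on log2(FPKM + 1), with the Benjamini-Hochberg adjustment over 11837 genes, 0 of the 50 tested members had an adjusted p under 0.05, where 0.228% of all tested genes did (27 genes, 21 higher and 6 lower in KO). At an unadjusted p under 0.05 stood 3 members, H4c9, H2ac13 and H3c1, all higher in KO. They are 6% of the members tested, against 9.2% of all tested genes. By limma-voom on the recovered reads 0 members passed and 1 had an unadjusted p under 0.05. By value 24 members were higher and 26 lower in KO, with a median log2 difference of -0.01, against 0.00 over all tested genes. The median size of the difference, regardless of sign, was 0.26 on the log2 scale among members and 0.24 among all tested genes, and the median standard error was 0.37 and 0.31. The 3 KO libraries stood wholly apart from the 3 wild-type libraries in 6 members (12%), against 15.2% of all tested genes. These were H4c9, H2ac13, H3c1, H4c3 and H1f10, which were higher in KO, and H2ac4, which was lower.

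**Figure D1:**
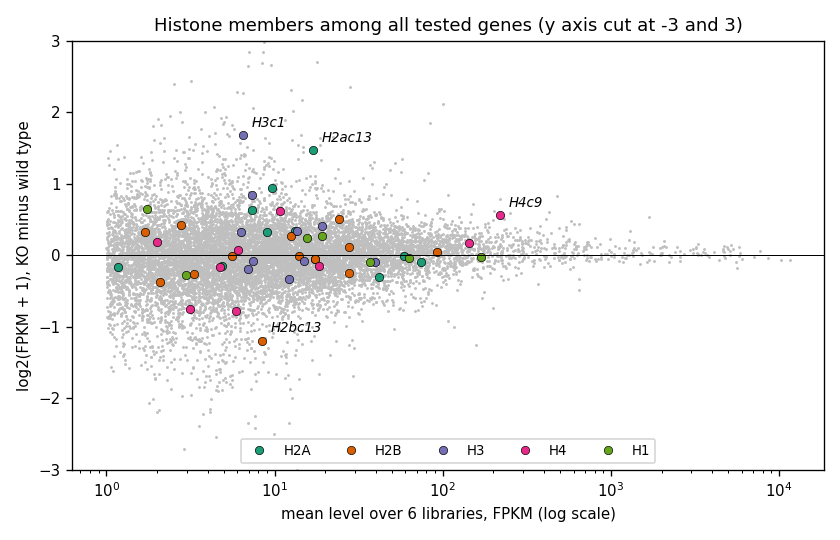
Difference between KO and wild type on the log2(FPKM + 1) scale (y) against the mean level over 6 libraries in FPKM (x, log scale), for the 50 tested histone members, coloured by class, and the other tested genes in grey. Most members lie among the grey points around 0, and H4c9, H2ac13, H3c1 and H2bc13 are named, with log2 differences of 0.56, 1.47, 1.68 and -1.20.

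The member with the smallest p was also the most abundant one. H4c9 (ENSMUSG00000060639.5, chr13:22040636-22041362, minus strand, 1 exon) encodes histone H4, whose protein sequence is the same for all the clustered H4 genes. Its level was 285.1, 247.8 and 249.8 FPKM in the KO libraries and 172.1, 180.2 and 175.9 FPKM in the wild-type libraries. Every KO library lay above every wild-type library, and the lowest KO value stood well clear of the highest wild-type value. The means were 260.9 ± 21.0 FPKM in KO and 176.1 ± 4.08 FPKM in wild type (SD, n = 3 each), a ratio of 1.48. On the log2 scale the difference was 0.56 ± 0.09 (SE), with a 95% interval of 0.35 to 0.77 and a limma adjusted p of 0.0647, which misses the threshold. An exact two-sided permutation test gave p = 0.1, the smallest that 3 libraries against 3 allow. The values rest on 5329, 3416 and 3782 reads in KO and on 2259, 2397 and 2418 reads in wild type. Of all 50-base stretches of the H4c9 transcript 28.9% also occur in another annotated gene, and of all 150-base stretches 2.08%, and the read length was not stated.

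No other H4 gene came as close to the threshold. H4c4, the next most abundant H4 gene, stood at 139.8, 165.8 and 152.0 FPKM in KO and at 126.7, 143.7 and 134.4 FPKM in wild type. Its groups overlapped, and the log2 difference was 0.17 with a 95% interval of -0.07 to 0.42. H4c3 was higher in each KO library, with 15.6, 11.9 and 11.5 FPKM against 10.6, 4.73 and 10.2 FPKM in wild type, and a limma adjusted p of 0.594. H4c14, the H4 gene of the chromosome 3 cluster, had 4.27 ± 2.32 FPKM in KO and 7.52 ± 2.13 FPKM in wild type, and its groups overlapped by a narrow margin, with 6.13 FPKM in the highest KO library and 5.06 FPKM in the lowest wild-type library. The other H4 members were at 19.2 and 17.6 (H4c8), 6.31 and 5.78 (H4c1), 4.79 and 4.73 (H4c12), 2.51 and 3.77 (H4c6) and 2.25 and 1.77 mean FPKM (H4c11) in KO and wild type.

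**Figure D2:**
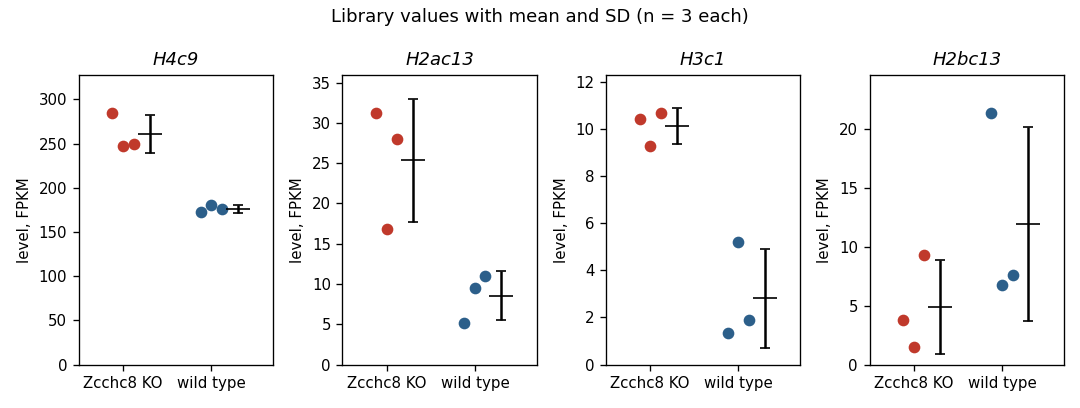
Level in FPKM (y) of H4c9, H2ac13, H3c1 and H2bc13 in each Zcchc8 KO and wild-type library (points), with mean and SD beside them (n = 3 each). The KO points lie above all wild-type points in the first 3 genes, and the groups overlap in H2bc13, where 1 wild-type library at 21.4 FPKM is far above the other two.

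Summed over the class, H4 was at 460.6, 486.2 and 450.5 FPKM in the KO libraries and at 352.9, 369.0 and 360.2 FPKM in the wild-type libraries. The groups did not overlap and the log2 ratio of the means was 0.37. Without H4c9 the sum was 175.5, 238.4 and 200.7 FPKM in KO and 180.8, 188.7 and 184.3 FPKM in wild type, so that the groups overlapped, and the log2 ratio was 0.15. A sum over a class depends less than a single copy on how reads of near-identical members were divided, but each read still counts by the length of the model it was given to, and copies outside the members share sequence too (Hist1h4n holds 19.2% of the 50-base stretches of H4c9). With recovered reads summed without division by length, the log2 ratio was 0.33 for H4, 0.09 for H3 and 0.11 for all members. The other classes overlapped between the groups. H2A summed to 269, 261 and 251 FPKM in KO and to 220, 253 and 269 FPKM in wild type, a log2 ratio of 0.08, which ran from -0.0002 without wild-type library 1 to 0.14 without wild-type library 3. H2B, which spread most within a group, summed to 182, 273 and 286 FPKM in KO and to 222, 201 and 277 FPKM in wild type, again 0.08, and this ran from -0.04 without KO library 3 to 0.26 without KO library 1. H3 came to 142, 135 and 151 FPKM in KO and to 122, 117 and 138 FPKM in wild type, 0.18 on the log2 scale and 0.13 to 0.25 with 1 library left out. H1 came to 317, 322 and 291 FPKM in KO and to 293, 312 and 308 FPKM in wild type, a log2 ratio of 0.03. All members together summed to 1372, 1477 and 1430 FPKM in KO and to 1211, 1252 and 1351 FPKM in wild type. The groups did not overlap here, but did without H4c9, where the log2 ratio of 0.17 became 0.09. No test was made on these sums.

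**Figure D3:**
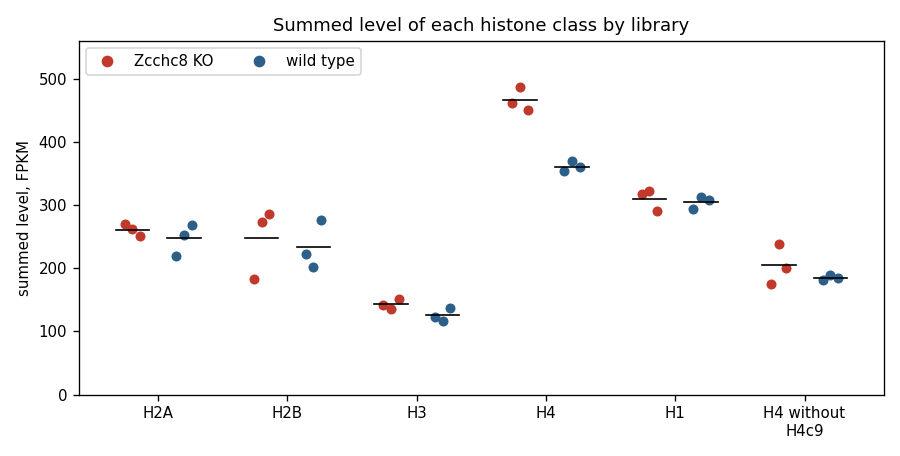
Summed level in FPKM (y) of the members of each histone class in the 3 KO and the 3 wild-type libraries (points), with the mean as a line. H4 is the only class whose groups do not overlap, between 450.5 and 486.2 FPKM in KO and between 352.9 and 369.0 FPKM in wild type, and it overlaps once H4c9 is left out.

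Among the H2A genes H2ac13 differed most. It stood at 31.3, 16.8 and 28.0 FPKM in the KO libraries and at 5.21, 9.46 and 11.03 FPKM in the wild-type libraries, means of 25.3 ± 7.60 and 8.57 ± 3.01 FPKM (SD, n = 3 each). The groups did not overlap. The log2 difference was 1.47 ± 0.32 (SE) with a limma adjusted p of 0.171. Its model is the coding sequence alone, 393 bases, and 90.1% of its 50-base stretches occur in another annotated gene, among them H2ac7 (84.0%), H2ac12 (82.6%), H2ac14 (82.0%) and H2ac4 (71.5%). Nothing states how reads that match several copies were counted, and the value cannot be assigned to this copy with certainty. Of these near copies, H2ac14 had 12.8 ± 4.64 FPKM in KO and 6.64 ± 3.65 FPKM in wild type, and H2ac12 9.20 ± 6.25 and 5.42 ± 2.80 FPKM, both with overlapping groups. H2ac7 averaged 4.91 FPKM in KO and 4.86 FPKM in wild type. H2ac4 went the other way, with 37.7, 37.8 and 35.6 FPKM in KO and 41.3, 45.1 and 51.7 FPKM in wild type. Its KO libraries were close to each other and all below the wild-type ones, with a log2 difference of -0.30 and a limma adjusted p of 0.586.

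The 2 most abundant H2A genes differed little in mean. H2ac8 had 71.1, 71.1 and 70.0 FPKM in KO and 61.4, 76.6 and 92.9 FPKM in wild type, so that the wild-type libraries lay on both sides of the KO ones. H2ac11, the member next to H4c9, had 58.5, 59.4 and 56.3 FPKM in KO and 63.5, 57.8 and 55.1 FPKM in wild type, a log2 difference of -0.02 with a 95% interval of -0.30 to 0.27. The mean levels of the rest were 16.7 and 18.3 FPKM (H2ac20), 14.6 and 11.7 FPKM (H2ac6), 10.1 and 7.92 FPKM (H2ac15) and 1.02 and 1.31 FPKM (H2ac10) in KO and wild type. H2ac21 was below the filter, with 1, 2 and 0 reads in the KO libraries and 6, 0 and 7 reads in the wild-type libraries, and an exact two-sided permutation p of 0.4.

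H3c1, an H3 gene of the large chromosome 13 cluster (ENSMUSG00000069265.2, chr13:23761853-23762386, minus strand), was at 10.4, 9.28 and 10.7 FPKM in the KO libraries and at 1.35, 5.22 and 1.88 FPKM in the wild-type libraries. The KO libraries were alike, and 1 wild-type library was above the other two but below all of KO. The means were 10.1 ± 0.751 FPKM in KO and 2.82 ± 2.10 FPKM in wild type (SD, n = 3 each). The log2 difference was 1.68 ± 0.38 (SE), the largest of the members tested, and the limma adjusted p was 0.180. These values rest on few reads, 143, 94 and 119 in KO and 13, 51 and 19 in wild type, and 49.5% of its 50-base stretches occur elsewhere.

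The groups of all other H3 genes overlapped. H3c6, the most abundant, averaged 38.9 ± 15.6 FPKM in KO and 40.6 ± 9.72 FPKM in wild type. H3c8 shows how uneven single copies were. It was counted with 115, 267 and 0 reads in the KO libraries and with 44, 36 and 7 reads in the wild-type libraries, so that its log2 difference of 0.85 has a 95% interval of -1.52 to 3.22. H3c10 had 148, 40 and 6 reads in KO and 156, 9 and 22 reads in wild type. The remaining means were 22.2 and 16.3 FPKM (H3c11), 14.8 and 12.2 FPKM (H3c2), 14.4 and 15.4 FPKM (H3c7), 11.2 and 13.1 FPKM (H3c4), 6.89 and 5.72 FPKM (H3c15) and 5.77 and 8.06 FPKM (H3c3) in KO and wild type.

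In H2B no member separated the groups. H2bc4, the most abundant, had 70.6, 120.2 and 95.3 FPKM in KO and 87.6, 78.2 and 106.3 FPKM in wild type. H2bc12 was 28.6 ± 8.72 FPKM in KO and 19.9 ± 5.85 FPKM in wild type, with a log2 difference of 0.50 and a limma adjusted p of 0.623. H2bc13 was lowest in KO relative to wild type, with 3.78, 1.52 and 9.33 FPKM against 21.4, 6.74 and 7.63 FPKM. These values rest on few reads, 37, 11 and 74 in KO and 147, 47 and 55 in wild type. Of its 50-base stretches 82.8% occur in another annotated gene. The groups overlapped, and the log2 difference of -1.20 ± 0.56 (SE) had a limma adjusted p of 0.565. Without KO library 2 the difference was -0.70, without wild-type library 1 it was -0.71, and over all libraries left out in turn it reached -1.72. The means of the others were 28.9 and 26.5 FPKM (H2bc11), 25.2 and 30.2 FPKM (H2bc8), 19.7 and 15.0 FPKM (H2bc15), 14.9 and 10.3 FPKM (H2bc14), 14.2 and 13.7 FPKM (H2bc3) and 5.45 and 5.70 FPKM (H2bc21) in KO and wild type. Those under 5 FPKM were H2bc9 at 3.77 and 1.79, H2bc6 at 2.93 and 3.73, H2bc7 at 1.54 and 2.61 and the testis gene H2bc1 at 1.96 and 1.41 FPKM in KO and wild type.

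No linker histone passed the test. H1f0, the second most abundant member and the linker histone of non-dividing and differentiated cells, had 156.1, 156.3 and 187.7 FPKM in KO and 164.9, 161.4 and 180.5 FPKM in wild type. Its log2 difference of -0.02 had a 95% interval of -0.27 to 0.22. H1f2 was 63.0 ± 18.1 FPKM in KO and 63.3 ± 9.14 FPKM in wild type. H1f10 was higher in every KO library, at 1.69, 2.90 and 2.53 FPKM against 1.18, 1.12 and 1.09 FPKM in wild type, on 53, 67 and 64 reads against 26, 25 and 25 reads, and its limma adjusted p was 0.594. The means of the other linker histones were 38.0 and 35.8 FPKM (H1f5), 20.9 and 17.5 FPKM (H1f4), 16.6 and 14.5 FPKM (H1f1) and 2.71 and 3.27 FPKM (H1f3) in KO and wild type. H1f4 overlaps the model of H2bc6 on the same strand, and the 2 cannot be fully told apart.

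**Figure D4:**
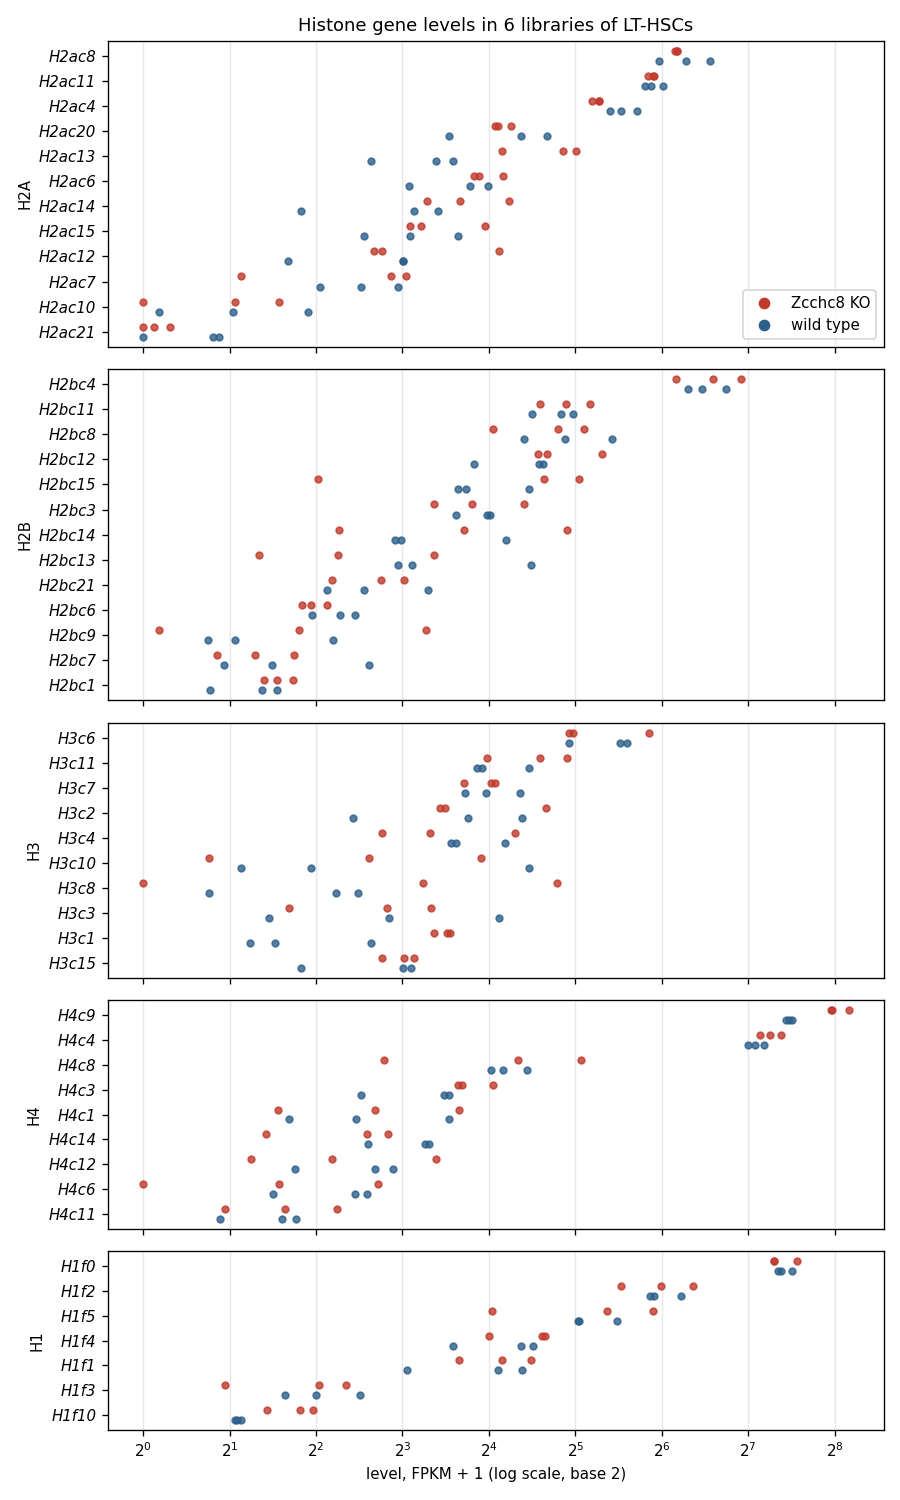
Level of each of the 51 members in the 3 Zcchc8 KO libraries (upper points of each row) and the 3 wild-type libraries (lower points), as FPKM + 1 on a log scale of base 2, by class and ordered by mean level. Levels run from near 0 for H2ac21 to 285.1 FPKM for H4c9, and libraries of a group lie close together in the abundant members and far apart in many of the others.

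Few copies carried most of the signal. Of the mean FPKM summed over the members, H4c9 held 16.2%, and with H1f0, H4c4, H2bc4 and H2ac8 the share was 51.7%. The order of the levels was H4c9, H1f0, H4c4, H2bc4, H2ac8, H1f2 and H2ac11, and the ranges over the 6 libraries of neighbours in this order overlapped, save those of H4c4 and H2bc4. H4c9 and H1f0 overlapped in their ranges over all libraries, although the KO values of H4c9 were all above those of H1f0. In 12 members the highest library was less than 2 times the lowest, and in 28 it was at least 3 times the lowest or the lowest was 0. Above 0 in every library were 47 members, 23 had at least 100 reads in each library, and 9 had under 100 in each. The spread of reads between replicates, as a chi-square per degree of freedom that is 1 for counting error alone, had a median of 20.8 over the members. It was 1.60 for H2ac11, 2.81 for H2ac4 and 1.24 for H2bc1, and 110 for H1f2, 108 for H2bc4 and 124 for H2bc9. For the same relative spread this value grows with the number of reads, so it does not rank members by relative spread. In H1f2 and H2bc4, which have many reads, the highest library was less than 2 times the lowest. In H2bc1, which has few reads, and in H2bc9 it was at least 3 times the lowest.

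The end of the annotated model was set beside the difference, since libraries of polyadenylated RNA see transcripts past the stem-loop. In 18 members the model ran at least 100 bases past the loop, and these held 49.4% of the summed level, with a median log2 difference of 0.02. In 15 it ended within 100 bases of the loop, with a median of -0.02, and in the 18 with no loop in the model, 17 of them tested, the median was 0.05. These 18 are a mixed group that holds H1f0, H1f10 and the 8 models of coding sequence alone. In each of the 3 groups 1 member had an unadjusted p under 0.05. The sequence of a poly(A) signal, AATAAA or ATTAAA, stood anywhere after the loop in 11 of the 18 long models. Their median log2 difference was 0.07, and that of the 7 long models without a match -0.08. A longer stretch past the loop is likelier to hold a match, so a match need not be the signal of the annotated end. H4c9 is among the 11, with its last match 15 bases before the end of the model. In H4c4, H2ac6, H1f3 and H2bc9 the last match lay 320, 309, 197 and 111 bases before it. FPKM per gene do not show where on a transcript the reads lie, so reads past the stem-loop were not measured.

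By position 49 members fall into 4 groups, and H1f0 and H1f10 lie outside them. The 11 members between H2bc13 and H3c11 on chromosome 13 had a median log2 difference of 0.19, with H2ac13 at 1.47 and H2bc13 at -1.20 side by side. The 5 members from H2ac12 to H2bc11, H4c9 among them, had a median of 0.50. In that short stretch H2ac12 (0.63), H2bc12 (0.50), H4c9 (0.56) and H2bc11 (0.11) were higher in KO by value and H2ac11 stood at -0.02. Of the 5 only H4c9 separated the groups. In H2ac12 and H2bc12, 92.1% and 74.2% of the 50-base stretches occur in another annotated gene. The 28 members of the large group from H4c8 to H2bc1 had a median of -0.06 and held 49.2% of the summed level. The 4 tested members on chromosome 3 had a median of -0.03.

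**Figure D5:**
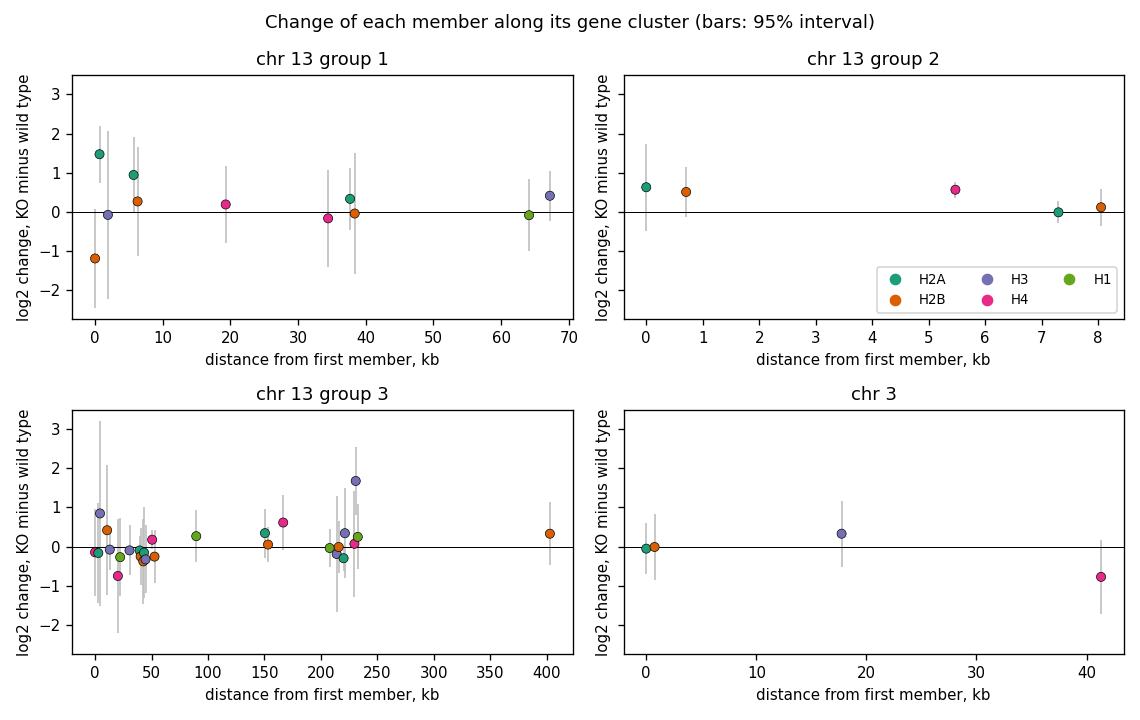
Difference between KO and wild type on the log2(FPKM + 1) scale (y, bars are 95% intervals) of each tested member against its distance in kb from the first member of its gene cluster (x), for H2bc13 to H3c11 (chr 13 group 1), H2ac12 to H2bc11 (chr 13 group 2), H4c8 to H2bc1 (chr 13 group 3) and chromosome 3. The intervals of H4c9, H2ac13 and H3c1 lie above 0, and all others include 0.

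H2A and H2B genes of the clusters are often arranged head to head, so that both start from the same stretch of DNA. There were 9 such pairs among the members, with the starts of their annotated models 176 to 302 bases apart. Some models, such as those of H2ac13 and H2bc13, hold the coding sequence alone, so their starts are not those of transcription. In 6 of the 9 both genes differed in the same direction by value, including the pair H2bc21 and H2ac20, at -0.01 and -0.05. Whether partners differ together was not tested. H2ac12 and H2bc12 were both higher in KO, by 0.63 and 0.50 on the log2 scale, and H2ac8 and H2bc8 both lower, by value, at -0.10 and -0.25. In the pair with the widest contrast, H2ac13 was at 1.47 and H2bc13 at -1.20, with the starts of their models 279 bases apart. Both share most of their 50-base stretches with other genes, so neither value can be assigned to its copy with certainty. The levels of partners also differed, from 1.30 times for H2bc14 over H2ac14 to 7.07 times for H2bc4 over H2ac6, in mean FPKM over the 6 libraries. The promoter entry of H2ac13 (RefSeq, GRCm38.p6), which covers most of the stretch shared with H2bc13, is given 5′ to 3′ with each CCAAT, on either strand, in capitals.
H2ac13, chr13:21716162-21716461, plus strand: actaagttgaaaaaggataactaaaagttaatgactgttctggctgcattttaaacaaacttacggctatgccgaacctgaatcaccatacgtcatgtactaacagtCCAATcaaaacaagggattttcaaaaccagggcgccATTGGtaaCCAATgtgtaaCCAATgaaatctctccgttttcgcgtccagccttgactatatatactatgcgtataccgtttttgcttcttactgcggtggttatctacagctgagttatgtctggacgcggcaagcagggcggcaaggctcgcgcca
CCAAT occurs 4 times in it and TATAAA not at all. RefSeq promoters, 250 bases before to 50 after the start, were found for 45 members, H2ac13 among them, as 46 entries. On either strand CCAAT was in 84.8% of these and in 37.4% of all 32851 promoters, TATAAA in 60.9% and 13.6%, and the octamer ATTTGCAT, known as an element of H2B promoters, in 23.9% and 1.74%. The H4c9 promoter has TATAAA, well upstream of the start, and neither of the other motifs. A match at any position of an entry was counted, whatever its distance from the start. A match is a description of the sequence and not a site of binding.

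Sharing of sequence limits the reading of single copies. More than 50% of the 50-base stretches occur in another annotated gene for 22 members, and none do for H1f1, H1f5 and H2bc21. A gene on the opposite strand overlaps 14 members, H2ac13 and H1f0 among them, and nothing states whether the counting used strand, so reads of the 2 strands cannot be told apart.

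The genes that make and remove histone mRNA were measured in the same libraries. None of the 35 tested genes of histone mRNA processing and decay passed the test in limma, and 0 had an unadjusted p under 0.05, against 9.2% of all tested genes; by value 25 were higher and 10 lower in KO, with a median log2 difference of 0.10. Slbp, the stem-loop binding protein, had 32.0, 33.5 and 23.7 FPKM in KO and 30.6, 21.9 and 18.0 FPKM in wild type. Npat, the activator of the clusters, averaged 3.95 and 3.90 FPKM, Lsm10 and Lsm11 of the U7 particle 77.1 and 58.9 and 1.99 and 2.87 FPKM, and Eri1, an exonuclease that trims the stem-loop end, 13.7 and 12.3 FPKM in KO and wild type. The groups overlapped in each of these genes.

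Of 10 tested genes of replication-independent and variant histones, counted without the members H1f0 and H1f10, 0 passed in limma. An unadjusted p under 0.05 was reached by 1 of them (10%, against 9.2% of all tested genes). That gene was H2az1, the variant H2A.Z, at 238.7 ± 18.0 FPKM in KO and 204.4 ± 9.94 FPKM in wild type (SD, n = 3 each), with a limma adjusted p of 0.521. H2ax averaged 292.4 FPKM in KO and 288.5 FPKM in wild type, and the genes of histone H3.3, H3f3a and H3f3b, 152.7 and 142.1 and 530.1 and 541.1 FPKM. Of 29 tested histone chaperone genes 0 passed, and Npm1 was the only one with an unadjusted p under 0.05 (3.45%, against 9.2%), at 137.2 FPKM in KO and 116.3 FPKM in wild type.

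Genes of the cell cycle phase in which histones are made gave values in both directions. Of 55 S phase and replication genes 0 passed in limma, and at an unadjusted p under 0.05 stood 6 higher and 2 lower in KO (14.5%, against 9.2% of all tested genes). By value 35 were higher and 20 lower, with a median log2 difference of 0.07 over the list. Gins3, of the replicative helicase, had 4.81, 4.98 and 8.17 FPKM in KO and 18.6, 14.1 and 19.6 FPKM in wild type, with a limma adjusted p of 0.116. Ccne1, cyclin E1, averaged 9.57 and 2.88 FPKM, Rrm2, of ribonucleotide reductase, 56.4 and 39.3 FPKM, and Gins1 23.1 and 12.7 FPKM in KO and wild type. Of 30 genes of G2 and mitosis 0 passed and 2 had an unadjusted p under 0.05 (6.67%, against 9.2%), both higher in KO, namely Cks2 at 176.2 and 117.4 FPKM and Anln at 4.25 and 2.0 FPKM in KO and wild type. Pcna averaged 97.2 and 91.0 FPKM, Mki67 11.9 and 10.2 FPKM and Top2a 24.5 and 25.9 FPKM in KO and wild type. Whether the share of cells in S phase differed between the groups was not tested.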

How the data were processed

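The authors' deposited table holds FPKM per gene symbol for 6 libraries, in KO and wild type as the sample titles give them. The tools were fastp, Bowtie2 and featureCounts and the build mm10, per the submitters' processing notes, with no versions, strand setting or rule for multiply matching reads stated. Symbols were matched to GENCODE M21, directly or through RefSeq synonyms, for 14851 genes (99.1%), all 51 members included. FPKM times exon length gave whole reads within 0.05 for all 306 member values, and for at least 97.8% of values under 100 reads in each library. Reads carry no molecular identifiers and come from amplified cDNA, so they overstate independent molecules.

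The test ran on log2(FPKM + 1) of the 11837 genes whose mean was 1 FPKM or more; this scale makes changes of low genes look smaller. limma 3.58.1 (R 4.3.3) was used, two-sided, with a variance trend, with p adjusted after Benjamini and Hochberg over these genes and a threshold of 0.05, and the code was tested on simulated data. Fold changes are ratios of mean FPKM. Alternatives changed the pseudocount, filter, scaling, variance model, block and libraries, and used limma-voom on recovered reads. All members with a mean of at least 1 FPKM are named. Of the related lists, up to 4 genes with an unadjusted p under 0.05 by smallest p, and a set of named regulators, are given. The members and lists were chosen with earlier results of these data known. Python 3.11.15 and matplotlib 3.10.9 drew the figures.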

Additional observations from a re-analysis of the deposited data

How the results depend on the processing

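No histone member passed the threshold under 15 of the 16 alternatives to the test. With a filter of a mean of at least 5 FPKM, 1 member was called, H4c9, with an adjusted p of 0.0467 and fewer genes tested. Over the 16 alternatives the log2 difference of H4c9 ran from 0.48 to 0.60 and its limma adjusted p from 0.0467 to 0.448. The adjusted p was 0.448 without the variance trend. The number of all genes called, 27 with the test as described, was 8 with limma-voom, 8 without the variance trend and 11 with the replicate number as a block, which called 0 members. It was 11 to 19 when 1 library was left out, 19, 13 and 11 without KO libraries 1 to 3 and 13, 13 and 11 without wild-type libraries 1 to 3; 0 members were called in each. The numbers were not taken as pairs, since no pairing was stated. Deviations of same-numbered libraries from their group means had correlations of 0.0235, 0.0071 and 0.0037. Those of differently numbered libraries ran from -0.0157 to 0.0088. The log2 ratio of the H4 sum was 0.30 under quantile scaling, against 0.37; the cause was not tested. Leaving out 1 library gave 0.34 to 0.39 for that sum, and 0.03 to 0.25 for the H4 sum without H4c9, a quantity added after seeing the data, as was the sum over all members. The log2 difference ran from 0.46 to 1.25 for H2ac14, from 0.28 to 0.79 for H4c3 and from -1.05 to -0.35 for H4c14 with 1 library left out. The median log2 difference of the members ran from -0.06 to 0.14 when 1 library was left out. Of 270 combinations of 17 named genes and alternatives, 269 stayed on the same side of the threshold with the same direction. The 17 were the members with an unadjusted limma p under 0.1 and the list genes named for one under 0.05. They were picked from these same libraries and none passed the test as described, so the count does not show that a difference is firm. No Dixon test for stray samples was made, since groups have 3 libraries.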
